A study of Rattus norvegicus with 6 samples.

Results

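Liver gene expression on diets rich in sucrose and fat was compared with that on low fat diets in rats, at equal protein content. The comparison used 4 of the 6 arrays of the series. The arrays of the high sucrose, high fat diet at normal protein (NP-HS-HF) and at high protein (HP-HS-HF) were set against those of the low fat diet at normal protein (NP) and at high protein (HP). The 2 differences, 1 at each protein level, share no array. A gene was described where both had the same sign, and its size was taken as their mean. Of 20450 probe sets tested, 9726 (47.6%) had the same sign in both pairs, and of 11421 named genes 5472 (47.9%) did.

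All animals were adult male Wistar rats of 300 to 350 g, 30 in all with 5 on each diet, and the labels give no genetic change. Every rat first ate the normal protein diet for 10 days and then its own diet for 33 to 37 days. Livers were taken in the fed state, 2 h after a morning meal of 87.6 kJ. RNA from 5 livers per diet was combined into 1 pool and hybridised to 1 whole-transcript array, so a diet has no replicate pool and differences between single rats cannot be seen. The p-values here rest on how these 6 arrays vary once diet type and protein level are fitted. That spread mixes technical noise, differences between pools and any diet response that depends on protein level. The other pair of arrays came from diets high in sucrose but low in fat, at normal protein (NP-HS) and at high protein (HP-HS). They entered the estimate of the spread, and their values are given beside those of the comparison. The source field of the labels calls the animals mice, whereas its organism field and protocols name rats, which is followed here. Values are log2 expression per probe set. In bulk liver, fewer cells of a type and less RNA per cell cannot be told apart.

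The liver turns dietary sugar into fatty acids and triglyceride, burns fatty acids when fat is plentiful, and makes or takes up cholesterol according to supply. Fructose from sucrose enters hepatic glycolysis below its main control point, and insulin and the sterol and carbohydrate sensing transcription factors set the level of the enzymes. The liver also answers infection and inflammation, through acute phase proteins made by hepatocytes and through interferon-stimulated genes, which most liver cell types can switch on.

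Pairs of the 6 arrays correlated at Pearson r between 0.9949 and 0.9964, and array medians spanned 0.033. The 9 hepatocyte markers had a mean of 12.79 on the NP-HS-HF array and 12.76 on the HP-HS-HF array, against 12.76 on the NP array and 12.79 on the HP array, near the top of a scale that ran from 2.4 to 13.92. In some lists the NP array was often at the edge. It was the highest for 17 of 26 interferon-stimulated genes and for 17 of 20 genes of the unfolded protein response. It was the lowest for 14 of 21 cholesterol genes, 8 of 14 pericentral and 6 of 8 endothelial markers. Results on these groups are given for each protein level or without the NP array. In other lists another array was at the edge. HP-HS was the highest for 17 of 33 genes of amino acid breakdown and 10 of 14 macrophage markers, and NP-HS-HF the lowest for 9 of those 14. The share over all genes was not counted.

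No probe set passed limma's test of high sucrose and high fat against low fat after Benjamini-Hochberg adjustment over 20450 probe sets (0 called, 0%, lowest adjusted p = 0.2). Before adjustment, 1059 probe sets (5.18%) had p under 0.05, and an ordinary t statistic called 0 as well. Fitted by limma without the NP-HS-HF array, 12 probe sets passed (lowest adjusted p = 0.0166). Fitted by limma without the HP-HS-HF array, 1 passed (adjusted p = 0.00931). In these fits the lone HS-HF array is assumed to vary like the others, so their calls describe 1 pool and not a diet. Both lowest adjusted p-values of 0.2 in the full fit belonged to probe sets without a gene name. Probe set 10700444 read 5.53 and 5.84 on the NP-HS-HF and HP-HS-HF arrays, against 6.71 and 6.87 on NP and HP. Its mean difference was -1.11 ± 0.0916 (limma SE, 2 pairs). Probe set 10889171 read 8.42 and 8.73 on the NP-HS-HF and HP-HS-HF arrays, against 7.32 and 7.75 on NP and HP. Its mean difference was 1.04 ± 0.0922 (limma SE, 2 pairs). In both, the HS-HF arrays and the low fat arrays did not overlap. Each SE in this text is limma's, estimated from all 6 arrays and drawn toward a value shared by all probe sets. It is not the spread of the 2 pairs.

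The differences at normal and at high protein were close to unrelated across probe sets, with r = 0.005 and Spearman rho = -0.053, given as a description, since probe sets are not independent. Of the probe sets tested, 4782 (23.4%) were higher on HS-HF in both pairs and 4944 (24.2%) lower in both. For named genes the numbers were 2695 (23.6%) and 2777 (24.3%), with a median mean difference of -0.004. At 1.5-fold or more in each pair, 22 probe sets (0.108%) had the same sign in both, 11 higher and 11 lower (0.0538% each), and 11 (0.0538%) had opposite signs. At 1.2-fold or more, 324 (1.58%) had the same sign, 161 higher (0.787%) and 163 lower (0.797%), and 272 (1.33%) had opposite signs. Differences of 1.5-fold or more within a single pair numbered 109 higher (0.533%) and 128 lower (0.626%) at normal protein, and 131 higher (0.641%) and 112 lower (0.548%) at high protein.

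**Figure D1:**
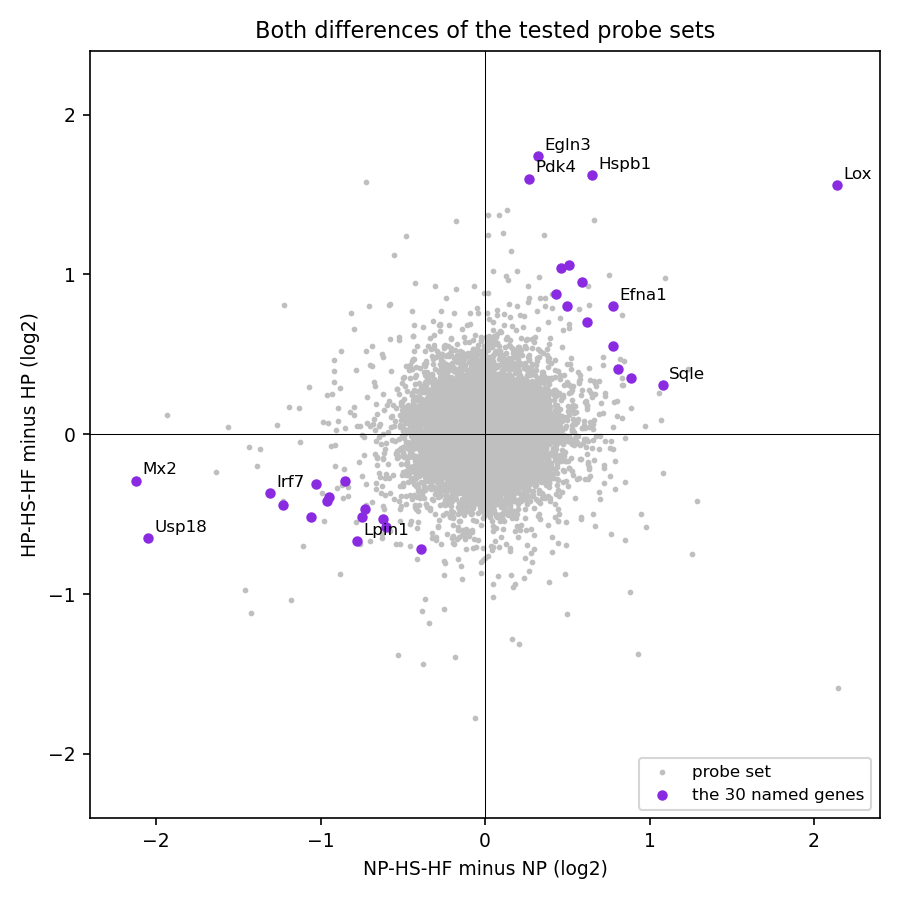
Each point is 1 of the 20450 probe sets tested, placed by its log2 difference NP-HS-HF minus NP on the horizontal axis and HP-HS-HF minus HP on the vertical axis. The 30 genes described below are in purple, with Lox at 2.14 and 1.56 apart from the rest at the upper right and Usp18 at -2.05 and -0.65 at the lower left.

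Among named genes, 5 were higher by 1.5-fold or more at both protein levels (0.0438%), namely Lox, Hspb1, Efna1, Iqub and Rab30, and 2 were lower (0.0175%), namely Usp18 and Lpin1. The other 15 of the 22 probe sets have no gene name here. Just inside the limit of 1.5-fold lay Iqub and Rab30, whose smaller differences were 1.51-fold and 1.54-fold, and Usp18 and Lpin1 at 1.57-fold and 1.59-fold. Just outside lay Acsf2 at 1.46-fold and Stc1 at 1.43-fold among the higher genes, and Trim36 at 1.499-fold and Prss32 at 1.44-fold among the lower ones. At 1.2-fold or more in each pair, 77 named genes were higher (0.674%) and 64 lower (0.56%), and the 15 with the largest mean difference in each direction are described next. None passed the test (limma, adjusted p between 0.76 and 0.968).

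**Figure D2:**
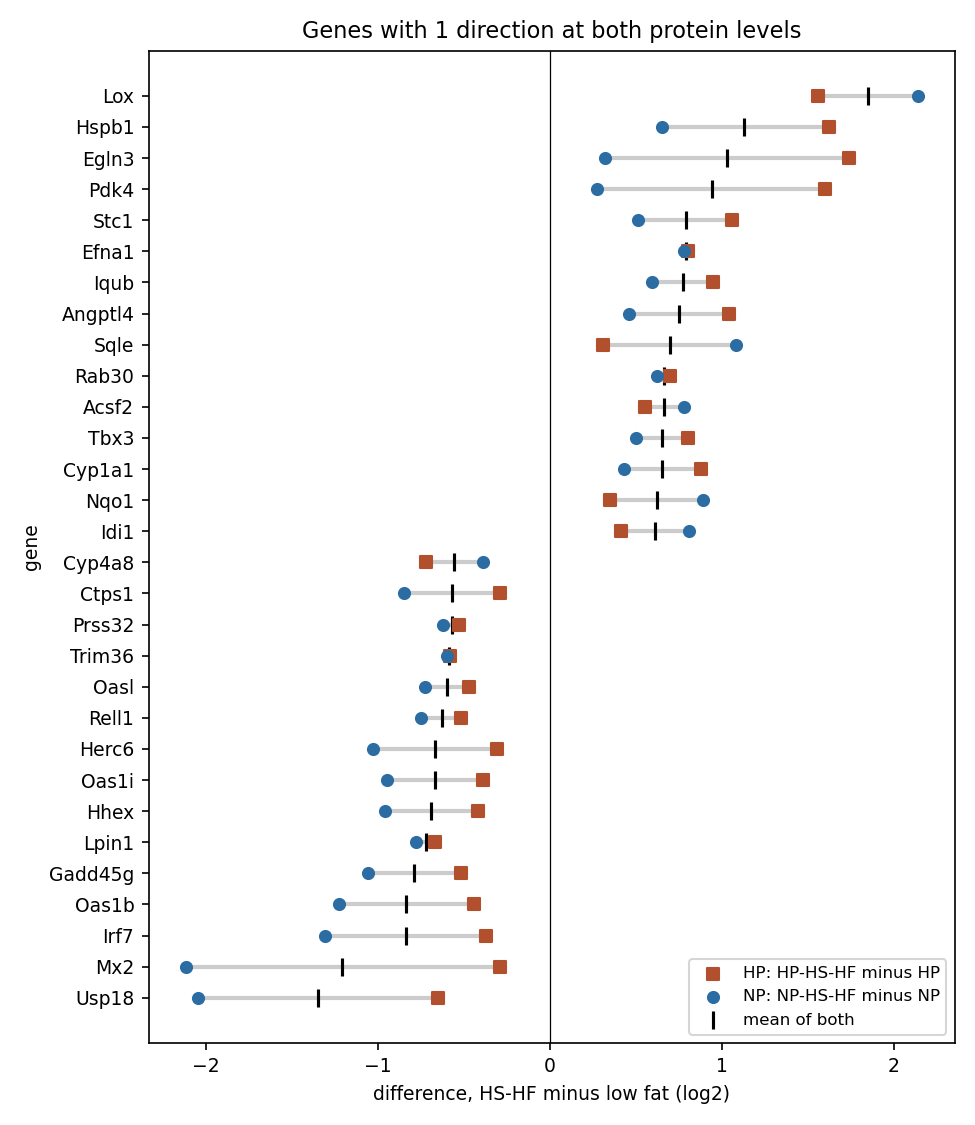
Log2 differences, HS-HF minus low fat, of the 15 higher and the 15 lower genes with the largest mean difference, with squares for high protein, circles for normal protein and a black tick for the mean. Efna1, Rab30, Trim36 and Lpin1 have nearly equal values in both pairs, whereas Egln3, Pdk4 and Mx2 owe most of their mean to 1 pair.

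Lox encodes lysyl oxidase, the secreted enzyme that cross-links collagen and elastin. Its probe set (10804463) read 7.55 on NP-HS-HF and 8.23 on HP-HS-HF, against 5.41 on NP and 6.67 on HP. Both HS-HF arrays lay above both low fat arrays, and NP-HS at 6.90 and HP-HS at 7.00 lay between them. The mean difference was 1.85 ± 0.244 (limma SE, 2 pairs), or 3.61-fold, the largest of any named gene described here (limma adjusted p = 0.76). It was 4.41-fold at normal and 2.95-fold at high protein.

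Efna1 encodes ephrin A1, a membrane-bound ligand of Eph receptor kinases. It read 9.68 on NP-HS-HF and 9.90 on HP-HS-HF, against 8.91 on NP and 9.10 on HP (probe set 10824439). The groups did not overlap, the HS arrays lay between them at 9.39 and 9.23, and the 2 differences of 0.78 and 0.80 were nearly equal (mean 0.79 ± 0.114 SE, 1.73-fold). The Golgi GTPase Rab30 differed by 0.62 and 0.70 (mean 0.66 ± 0.117 SE). Iqub, a protein with an IQ motif and a ubiquitin-like domain, differed by 0.59 and 0.95, but a second, dimmer probe set of the gene differed by 0.09 and 0.64.

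A further 3 genes had larger differences at high protein, and that gap between protein levels was not tested. Hspb1, a small heat shock protein, read 8.69 on NP-HS-HF and 9.57 on HP-HS-HF, against 8.04 on NP and 7.95 on HP. Egln3, a prolyl hydroxylase that marks hypoxia-inducible factors for destruction, read 6.5 on NP-HS-HF and 8.83 on HP-HS-HF, against 6.18 on NP and 7.09 on HP, so that the groups overlapped. Pdk4, the kinase that shuts pyruvate dehydrogenase when fatty acids are burned, read 10.27 on NP-HS-HF and 11.29 on HP-HS-HF, against 10.00 on NP and 9.69 on HP. The HP-HS-HF array was the highest of the 6 for all 3 genes. Their differences were 1.57-fold, 1.25-fold and 1.2-fold at normal protein and 3.07-fold, 3.34-fold and 3.04-fold at high protein. Without the NP-HS-HF array, which left 1 HS-HF array, their log2 differences were 1.57, 1.72 and 1.56. Without the HP-HS-HF array they were 0.69, 0.34 and 0.31. None of the 3 passed the test with all arrays (limma, adjusted p between 0.76 and 0.877).

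The remaining higher genes had mean differences between 0.61 and 0.79. Angptl4, the secreted inhibitor of lipoprotein lipase, differed by 0.46 at normal and 1.04 at high protein (mean 0.75 ± 0.168 SE). Stc1, the glycoprotein hormone stanniocalcin 1, differed by 0.51 and 1.06, and Cyp1a1, the P450 induced through the aryl hydrocarbon receptor, by 0.43 and 0.88. Acsf2, an acyl-CoA synthetase, differed by 0.78 and 0.55, and Nqo1, a quinone reductase controlled by NRF2, by 0.89 and 0.35. For Nqo1 the groups overlapped, and its mean difference of 0.62 became 0.13 without the NP array. In 11 of the 15 higher genes both HS-HF arrays lay above both low fat arrays, where 14.9% of all named genes did so. The rule used these same values, so that count describes the choice. The HS array lay between the HS-HF and low fat arrays for 13 of the 15 at normal protein and for 8 at high protein. Among all 11421 named genes it did so for 4279 at normal and 4258 at high protein. The choice of wide differences also favours such counts.

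**Figure D3:**
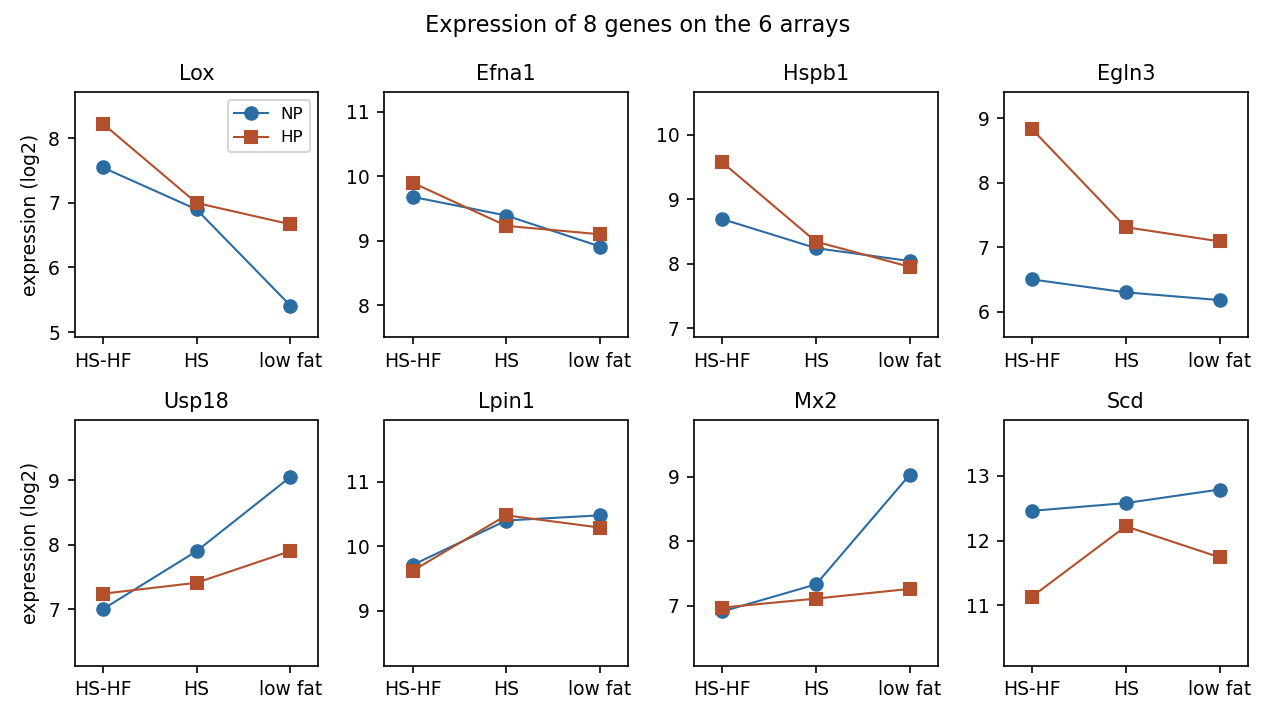
Log2 expression of 8 genes on the 6 arrays, with HS-HF at the left, HS in the middle and low fat at the right, circles for normal and squares for high protein, and 1 array per point. All panels span the same number of log2 units, and Lox is higher and Usp18 lower on both HS-HF arrays than on both low fat arrays, whereas the groups overlap for Egln3 and Scd.

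Lpin1 encodes lipin 1, the phosphatase that makes diacylglycerol from phosphatidate on the way to triglyceride. It read 9.71 on NP-HS-HF and 9.62 on HP-HS-HF, against 10.48 on NP and 10.29 on HP (probe set 10889269). Both HS-HF arrays were below both low fat arrays, and the HS arrays, at 10.40 and 10.48, were level with low fat. The mean difference was -0.72 ± 0.0949 (limma SE, 2 pairs), or 1.65-fold lower (limma adjusted p = 0.76). Gadd45g, a growth arrest gene, differed by -1.06 and -0.52, and Hhex, a homeobox factor of liver development, by -0.96 and -0.42. Rell1, a membrane protein related to a TNF receptor, differed by -0.75 and -0.52 (mean -0.63 ± 0.0906 SE). The nucleotide enzyme Ctps1, which makes CTP, differed by -0.85 and -0.29. The ubiquitin ligase Trim36 and the serine protease Prss32 had mean differences of -0.59 and -0.57, and the fatty acid hydroxylase Cyp4a8, one of a family of close paralogs, -0.56. In 13 of the 15 lower genes both HS-HF arrays lay below both low fat arrays, where 15.5% of all named genes did so, and again the choice used these values. The HS array lay between them for 14 of the 15 at normal protein and for 8 at high protein. Over all 11421 named genes those counts were 4279 and 4258, and the choice of wide differences favours them here too.

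A block of 7 of the 15 lower genes consisted of interferon-inducible genes: Usp18, Mx2, Irf7, Oas1b, Oas1i, Herc6 and Oasl. The list of such genes read below held 26 of the 11421 named genes tested. All of the block but Oas1i are on it, so the 2 counts overlap. The block was seen in genes chosen by these same values. Usp18 encodes the protease that removes ISG15 from proteins and restrains signalling by the type I interferon receptor. It read 7.00 on NP-HS-HF and 7.24 on HP-HS-HF, against 9.05 on NP and 7.90 on HP (probe set 10858370). The groups did not overlap, and NP-HS at 7.90 and HP-HS at 7.41 lay between their pairs. The mean difference was -1.35 ± 0.288 (limma SE, 2 pairs), or 2.55-fold lower (limma adjusted p = 0.783). It was -0.83 without the NP array.

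Mx2, a dynamin-like antiviral GTPase, read 6.91 on NP-HS-HF and 6.97 on HP-HS-HF, against 9.03 on NP and 7.26 on HP (probe set 10750524). Only the NP array was far from the others, and the mean difference of -1.21 ± 0.397 (SE) became -0.36 without it. Irf7, the transcription factor that amplifies the interferon response, read 6.99 on NP-HS-HF and 7.10 on HP-HS-HF, against 8.30 on NP and 7.47 on HP (mean difference -0.84 ± 0.212 SE, and -0.41 without the NP array). Oas1b, of the family of 2-5A synthetases that sense double-stranded RNA, read 5.43 on NP-HS-HF and 5.48 on HP-HS-HF, against 6.66 on NP and 5.92 on HP (mean difference -0.84 ± 0.176 SE, and -0.55 without the NP array). Oasl, a relative of these synthetases, differed by -0.73 and -0.47, the most even of the block. Oas1a, Oas1b and Oas1i are near-identical paralogs, so their probe sets may share signal and their separate values are uncertain.

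The list of interferon-stimulated genes held 26 tested genes, and 19 of them were lower on HS-HF in both pairs and 0 higher, against 24.3% lower and 23.6% higher among all named genes. Its median mean difference was -0.30, against -0.004 over all named genes. At normal protein 25 of 26 were lower, with a median of -0.40, and at high protein 20 of 26, with a median of -0.14. None passed the test (limma), and 11 had an unadjusted p under 0.05, against 4.51% of named genes. The mean level of the list was 7.09 on NP-HS-HF and 7.17 on HP-HS-HF, against 7.77 on NP and 7.35 on HP, with NP-HS at 7.39 and HP-HS at 7.23. The chemokine Cxcl10 differed by -0.38 and -0.36 and Ifit3, an antiviral tetratricopeptide protein, by -0.62 and -0.32. Isg15, the ubiquitin-like modifier itself, differed by -1.26 at normal protein and by 0.06 at high protein, and Ifit1 by -1.44 and -0.08. On the other 5 arrays the list's mean lay between 7.09 and 7.39, below that of the NP array.

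Markers of immune cells were read beside this list, and the shares over all named genes were again 24.3% lower and 23.6% higher. Of 14 macrophage markers, 8 were lower on HS-HF in both pairs and 1 higher, and their mean level was 8.19 on NP-HS-HF and 8.35 on HP-HS-HF, against 8.21 on NP and 8.46 on HP. Of 9 markers of lymphocytes and neutrophils, 2 were lower and 3 higher in both, with mean levels of 6.45 on NP-HS-HF and 6.61 on HP-HS-HF, against 6.53 on NP and 6.57 on HP. The part of these cells in the result was not tested.

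**Figure D4:**
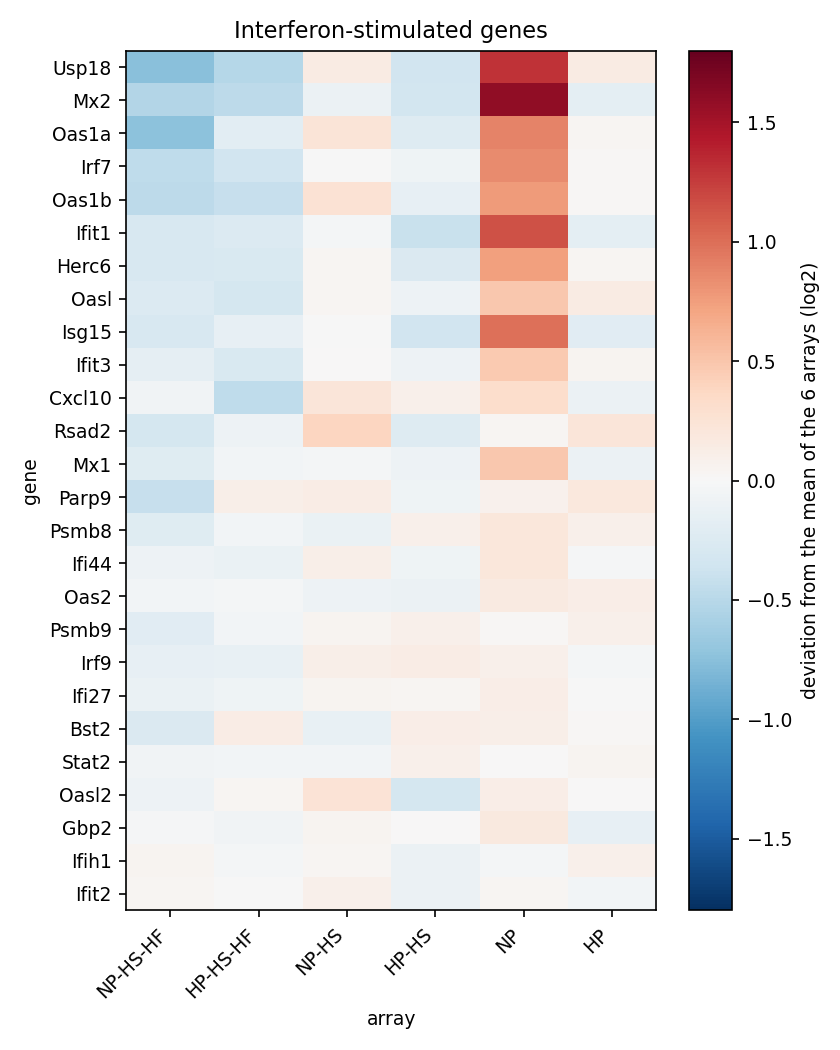
Each cell is the log2 value of 1 of 26 interferon-stimulated genes on 1 array minus the gene's mean over the 6 arrays, with red above and blue below that mean. The red column is the NP array, the highest for 17 of 26 genes, and the NP-HS-HF column is the lowest for 15.

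The promoters of the interferon-stimulated genes were read from RefSeq (GRCr8), as 300 bases from 250 before to 50 after each gene's start. The motif searched was the core of the interferon-stimulated response element, written as GAAA, any 2 bases and GAAA again, on both strands. It was in 13 of the 20 list genes with a promoter in that table, 9 of them among the 15 that were lower in both pairs. Its share was lower among these 15 than among the other list genes with a promoter. The motif was in 3.92% of all 33469 promoters and in 3.01% of those of the 9438 named genes tested. The list was written from genes that answer interferon, so this comparison describes how the list was chosen. A link of the motif to the differences was not tested. The 4 promoters below are those with the largest negative mean differences among list genes that had the motif and were lower in both pairs. The motif is in capitals. Usp18, Mx2, Ifit1, Herc6 and Oasl had larger negative mean differences than Ifit3 but had no promoter in that table or no match. A match is a run of letters and not a site shown to be bound.
Oas1a promoter, chr12:41330216-41330515, plus strand: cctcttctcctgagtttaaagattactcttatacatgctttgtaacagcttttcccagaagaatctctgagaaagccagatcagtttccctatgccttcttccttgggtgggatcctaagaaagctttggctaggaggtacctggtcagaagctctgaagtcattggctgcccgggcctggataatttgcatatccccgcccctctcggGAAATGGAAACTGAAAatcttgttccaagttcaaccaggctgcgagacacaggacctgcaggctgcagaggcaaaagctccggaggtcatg
Irf7 promoter, chr1:205799974-205800273, minus strand: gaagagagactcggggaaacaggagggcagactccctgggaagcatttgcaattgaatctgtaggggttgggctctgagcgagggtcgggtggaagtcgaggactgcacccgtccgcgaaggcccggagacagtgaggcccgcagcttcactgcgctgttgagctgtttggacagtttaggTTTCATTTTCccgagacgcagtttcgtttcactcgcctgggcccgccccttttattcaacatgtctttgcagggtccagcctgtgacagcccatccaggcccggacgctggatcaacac
Oas1b promoter, chr12:41395803-41396102, minus strand: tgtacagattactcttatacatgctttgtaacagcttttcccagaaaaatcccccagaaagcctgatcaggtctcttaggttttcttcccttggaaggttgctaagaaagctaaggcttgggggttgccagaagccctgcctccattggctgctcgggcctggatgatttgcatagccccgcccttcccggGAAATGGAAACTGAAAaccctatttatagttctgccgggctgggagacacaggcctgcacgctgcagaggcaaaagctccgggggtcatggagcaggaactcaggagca
Ifit3 promoter, chr1:241527076-241527375, plus strand: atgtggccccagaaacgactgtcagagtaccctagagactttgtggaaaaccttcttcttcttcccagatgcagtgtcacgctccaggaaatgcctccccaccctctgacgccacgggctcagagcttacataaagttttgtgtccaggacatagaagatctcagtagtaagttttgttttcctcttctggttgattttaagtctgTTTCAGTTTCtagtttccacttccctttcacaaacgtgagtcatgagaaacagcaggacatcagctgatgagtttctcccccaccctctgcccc
Oas1a and Oas1b each hold 2 overlapping matches on the gene's strand, whose first bases lie at -41 and -35 and at -59 and -53 from the start. In Irf7 and Ifit3 the motif lies on the opposite strand, at -69 and -44. The 4 genes had mean differences of -0.93, -0.84, -0.84 and -0.47.

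The list for making fatty acids and triglyceride held genes that were lower, or of mixed sign, on HS-HF. Of 24 tested, 11 were lower in both pairs and 0 higher, against 24.3% and 23.6% of all named genes. The list's median was -0.10. Of the 24, 2 had an unadjusted p under 0.05 (limma), against 4.51% of named genes. Scd, the stearoyl-CoA desaturase, read 12.46 on NP-HS-HF and 11.13 on HP-HS-HF, against 12.79 on NP and 11.74 on HP (mean difference -0.47 ± 0.213 SE, limma adjusted p = 0.959). Its mean difference was -0.15 without the HP-HS-HF array and -0.79 without the NP-HS-HF array. Both normal protein arrays lay above both high protein arrays, so the groups overlapped. Acaca, the cytosolic acetyl-CoA carboxylase, differed by -0.14 and -0.42, the acyltransferase Agpat2 by -0.11 and -0.26, and Dgat1, of the last step to triglyceride, by -0.07 and -0.24. Pnpla3, a lipase of lipid droplets that follows carbohydrate intake, had opposite signs, at -0.67 with normal and 0.30 with high protein. The HP-HS-HF array was the lowest of the 6 for 10 of the 24 genes, and the NP array the highest for 11.

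Genes of cholesterol synthesis and uptake were higher, or of mixed sign, on HS-HF. Of 21 genes tested, 10 were higher on HS-HF in both pairs and 0 lower, against 23.6% and 24.3% of all named genes. The list's median was 0.10. The counts were 9 and 1 with each array centred on its median and 10 and 2 with repeated quantile normalization. Of the 21, 4 had an unadjusted p under 0.05 (limma), against 4.51% of named genes. Sqle, the squalene epoxidase, read 6.89 on NP-HS-HF and 7.52 on HP-HS-HF, against 5.81 on NP and 7.21 on HP (mean difference 0.70 ± 0.213 SE, limma adjusted p = 0.877). Without the NP array its mean difference was 0.27, and without the HP array 1.12. Idi1, which makes the isoprenoid building block dimethylallyl diphosphate, read 6.89 on NP-HS-HF and 6.98 on HP-HS-HF, against 6.08 on NP and 6.57 on HP (mean difference 0.61 ± 0.111 SE). For Idi1 the groups did not overlap, and for Sqle they did. The sterol demethylase Cyp51 differed by 0.65 and 0.26, Dhcr7 of the last step to cholesterol by 0.43 and 0.27, and the methylsterol oxidase Msmo1 by 0.77 and 0.05 (mean 0.41, and 0.05 without the NP array). At normal protein, 19 of 21 genes were higher with a median of 0.17, and at high protein 12 of 21 with a median of 0.02. The NP array was the lowest of the 6 for 14 of the 21.

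The next list held fatty acid oxidation genes and targets of PPAR alpha, the receptor for fatty acids in liver. Of 28 tested, 8 were higher and 6 lower in both pairs, near the 23.6% and 24.3% of all named genes. The median was -0.002. Pdk4 and Angptl4, given above, were the 2 members higher by 1.2-fold or more in both, and Cyp4a8, at -0.39 and -0.72, was the 1 member lower by as much. Among 24 genes of lipid droplets, fat uptake and lipolysis, 8 were higher and 5 lower in both, with a median of 0.01. G0s2, the inhibitor of adipose triglyceride lipase, read 9.54 on NP-HS-HF and 10.12 on HP-HS-HF, against 9.42 on NP and 9.52 on HP. The fatty acid binding proteins Fabp4 and Fabp2 differed by 0.26 and 0.39 and by 0.13 and 0.51. Plin2, the coat protein of hepatic lipid droplets, differed by -0.09 at normal and 0.69 at high protein. Cd36, a fatty acid uptake receptor, differed by -0.45 and -0.09, and its second probe set by -0.18 and 0.10. For 10 of these 24 genes the HP-HS-HF array was the highest.

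Of 21 genes of glycolysis, fructose use and pyruvate entry, 6 were higher and 6 lower in both pairs. These counts were near the 23.6% and 24.3% of all named genes. Pklr, the pyruvate kinase of liver, read 10.22 on NP-HS-HF and 9.74 on HP-HS-HF, against 10.62 on NP and 10.13 on HP, and its differences of -0.40 and -0.39 were nearly equal (mean -0.39 ± 0.0777 SE, limma adjusted p = 0.76). Within each protein level HS-HF was lower, and across levels the groups overlapped. Slc2a5, the fructose carrier GLUT5, read 8.07 on NP-HS-HF and 7.91 on HP-HS-HF, against 8.56 on NP and 8.30 on HP, with no overlap (mean difference -0.44 ± 0.106 SE). Of 14 genes of gluconeogenesis and glycogen, 8 were lower and 3 higher in both, with a median of -0.07. The 3 higher included G6pc1, the glucose-6-phosphatase, at 0.11 and 0.50, and Pck1, the cytosolic PEP carboxykinase, at 0.22 and 0.19.

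Insulin-related genes had 4 of 15 members higher and 4 lower in both pairs, near the 23.6% and 24.3% of all named genes. Igfbp1, a binding protein of insulin-like growth factors that insulin represses in liver, read 10.83 on NP-HS-HF and 10.91 on HP-HS-HF, against 10.11 on NP and 10.43 on HP. The groups did not overlap, and the HS arrays lay between at 10.55 and 10.62. The mean difference was 0.60 ± 0.0947 (limma SE, 2 pairs, limma adjusted p = 0.76). Foxo3, a forkhead factor held out of the nucleus by insulin signalling, read 9.45 on NP-HS-HF and 9.02 on HP-HS-HF, against 9.86 on NP and 9.50 on HP (mean difference -0.44 ± 0.0804 SE). Pik3r1, the regulatory subunit of PI 3-kinase, differed by -0.20 and -0.37. Under other scalings of the arrays the list's counts were 2 higher and 4 lower, or 5 and 3.

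Of 33 genes of amino acid breakdown, 27 were higher on HS-HF at normal protein (median 0.09) and 25 were lower at high protein (median -0.06), so that 8 were higher and 6 lower in both, a total not far from the 47.9% of all named genes that shared a sign. Gldc, of the glycine cleavage system, differed by 0.26 and 0.49. Of 7 urea cycle genes, 1 was higher and 3 lower in both, and 6 of 7 were lower at high protein. The unfolded protein response had 8 of 20 genes lower in both pairs and 0 higher, against 24.3% and 23.6% of all named genes. All 20 were lower at normal protein (median -0.25), and 12 of 20 were higher at high protein (median 0.04). Herpud1, of the degradation complex of the endoplasmic reticulum, read 10.82 on NP-HS-HF and 10.77 on HP-HS-HF, against 11.19 on NP and 10.91 on HP. Creld2, a chaperone of that compartment, differed by -0.70 at normal and 0.43 at high protein, and Derl3, of its degradation channel, by -1.57 and 0.05. The difference between protein levels was not tested. Of 20 targets of the integrated stress response, 2 were higher and 5 lower in both, with Gdf15 at 0.21 and 0.50 and Nupr1 at -0.28 and -0.57.

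Drug-metabolising enzymes gave values in both directions. Among 26 cytochrome P450 enzymes and drug receptors, 10 were higher and 5 lower in both pairs, with a median of 0.04. Among all named genes, 23.6% were higher and 24.3% lower in both. Nr1i3, the constitutive androstane receptor, read 10.11 on NP-HS-HF and 9.84 on HP-HS-HF, against 9.48 on NP and 9.56 on HP, with no overlap (mean difference 0.45 ± 0.107 SE). Cyp2c12, the P450 that predominates in female rats, differed by 0.63 and 0.41, and close relatives may share its signal. Among 23 conjugation and antioxidant genes, 6 were higher and 5 lower in both. Ugt2b1, a glucuronosyltransferase of a family with close paralogs, read 9.59 on NP-HS-HF and 9.71 on HP-HS-HF, against 10.10 on NP and 10.25 on HP, a mean difference of -0.53 ± 0.0856 (SE). Hmox1, the haem oxygenase, differed by 0.32 and 0.53, and Akr7a3, an aldehyde reductase, by 0.48 and 0.31. Of 24 genes of bile acid synthesis and sterol transport, 5 were higher and 6 lower in both, near the shares of all named genes. The phospholipid exporter Abcb4 differed by 0.12 and 0.47, and the sterol 12-alpha-hydroxylase Cyp8b1 by -0.23 and -0.25.

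Of 23 genes of the acute phase, 14 were higher on HS-HF in both pairs and 4 lower. Most of the differences were small, with a median of 0.04. The shares over all named genes were 23.6% and 24.3%, here and for the next lists. The interleukin 1 receptor Il1r1 read 9.74 on NP-HS-HF and 9.75 on HP-HS-HF, against 9.26 on NP and 9.52 on HP, and Lbp, which binds bacterial lipopolysaccharide, differed by 0.28 and 0.41. Il6r, the interleukin 6 receptor, differed by -0.20 and -0.39. Oxidative phosphorylation had 9 of 16 genes higher and 2 lower in both (median 0.08), with Sdhb, of complex II, at 0.12 and 0.26. Of 15 clock genes, 3 were higher and 5 lower in both. Bmal1, of the clock's activating arm, read 6.65 on NP-HS-HF and 6.59 on HP-HS-HF, against 5.82 on NP and 6.24 on HP, with no overlap (mean difference 0.59 ± 0.129 SE). Per1 and Nr1d1, of the repressing arm, differed by -0.37 and -0.40 and by -0.22 and -0.41. Among 16 lipoprotein genes, 4 were higher and 1 lower in both pairs. Among 13 genes of the growth hormone axis 3 were higher and 4 lower, and the same counts held for 13 genes of iron handling. Among 13 cell division genes, 2 were higher and 4 lower in both.

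**Figure D5:**
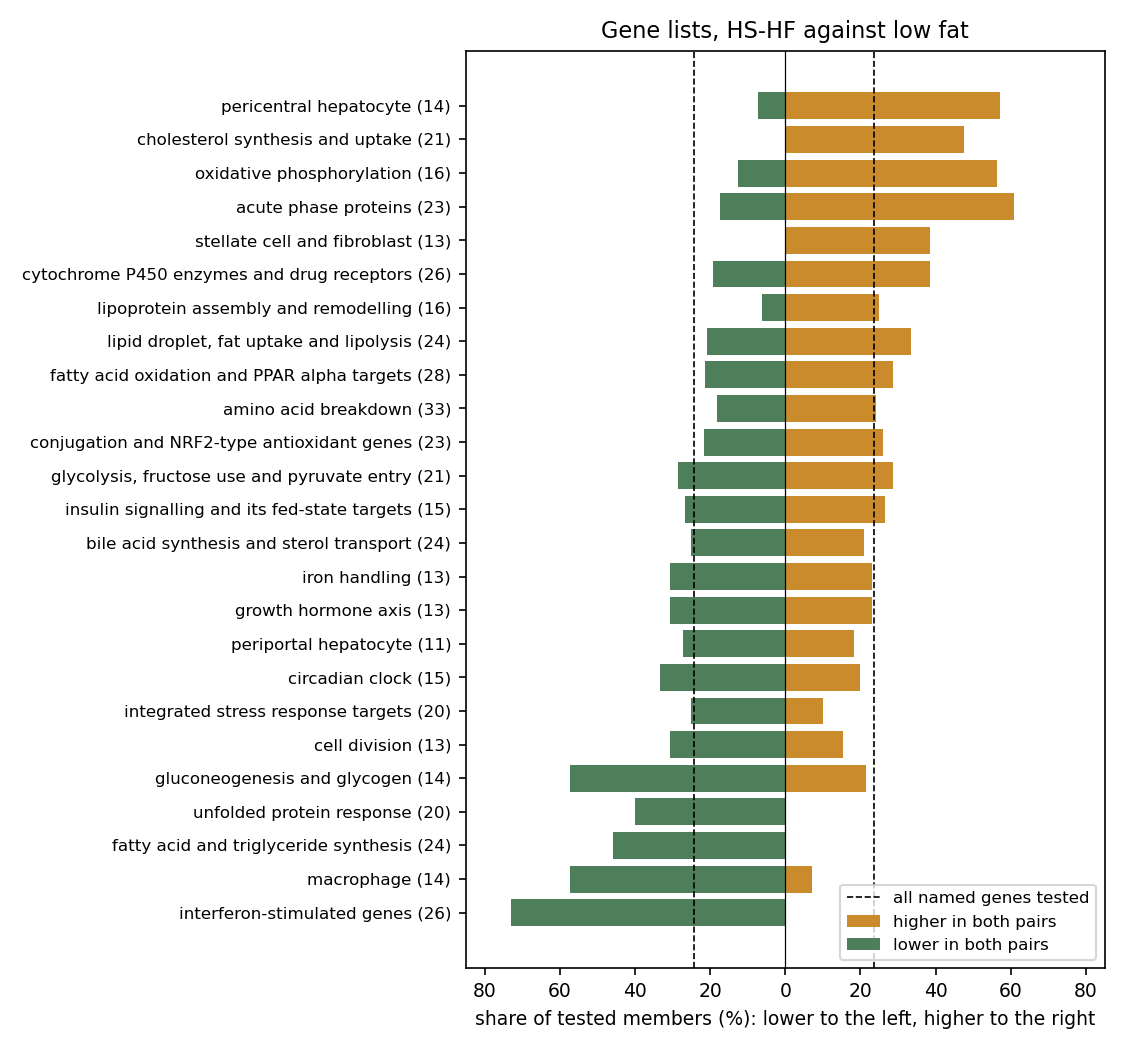
Share of the tested members of each list, with its number in brackets, that was higher (orange, to the right) or lower (green, to the left) on HS-HF in both pairs, with dashed lines at the 23.6% and 24.3% of all named genes. Interferon-stimulated genes, with 19 of 26 lower and 0 higher, are at the bottom, and cholesterol synthesis, with 10 of 21 higher and 0 lower, is near the top.

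Markers of liver zones and of other cell types were read the same way, beside the 23.6% higher and 24.3% lower among all named genes. Of 14 genes of pericentral hepatocytes, those around the central vein, 8 were higher on HS-HF in both pairs and 1 lower, with a median of 0.14, or 0.25 at normal and 0.13 at high protein. Tbx3, a transcription factor of that zone, read 8.61 on NP-HS-HF and 9.47 on HP-HS-HF, against 8.11 on NP and 8.68 on HP (mean difference 0.65 ± 0.115 SE, limma adjusted p = 0.76). Rhbg, an ammonium transporter, read 7.39 on NP-HS-HF and 7.60 on HP-HS-HF, against 6.86 on NP and 7.30 on HP, and the glutamate transporter Slc1a2 differed by 0.65 and 0.23. The groups overlapped for Tbx3 and Slc1a2 and did not for Rhbg. Slc1a4, an amino acid transporter, differed by 0.02 at normal and 1.25 at high protein. Axin2 was the 1 lower member, at -0.06 and -0.04. A further 5 of the 14 had opposite signs, among them Cyp7a1 at 0.12 and -0.44, Notum at 0.26 and -0.20 and Rnf43 at 0.30 and -0.10. Of 11 periportal genes, 2 were higher and 3 lower in both.

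Lox was also 1 of 13 markers of stellate cells and fibroblasts. Of these, 5 were higher on HS-HF in both pairs and 0 lower, against 23.6% and 24.3% of all named genes. The median was 0.08. Rgs5, a pericyte regulator of G proteins, read 8.47 on NP-HS-HF and 8.83 on HP-HS-HF, against 7.97 on NP and 8.39 on HP (mean difference 0.47 ± 0.0966 SE). Pdgfrb, the PDGF receptor of these cells, differed by 0.15 and 0.24. The collagen genes Col1a1 and Col3a1, whose products are substrates of lysyl oxidase, differed by -0.01 and 0.11 and by 0.09 and 0.17. Endothelial markers were higher in both pairs in 4 of 8 and lower in 0, with 8 of 8 higher at normal protein and 4 of 8 at high protein. Hepatocyte markers were higher in both pairs in 2 of 9 and lower in 3, bile duct markers higher in 1 of 6 and lower in 0, and markers of adipose tissue and pancreas higher in 4 of 8 and lower in 2. The 3 red cell markers tested had opposite signs in the 2 pairs. The part of a changed cell mixture in these values was not tested.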

How the data were processed

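Expression was measured on 6 whole-transcript arrays, each with pooled liver RNA of 5 rats. The deposited values are log2 expression per probe set, which the authors summarised by RMA, the robust multi-array average, as the submitters' processing notes state. No version or setting of RMA is given in the sources used. The table held 29214 probe sets. Platform annotation gave 1 gene symbol to 15310, several to 323 and none to 13581, and a gene with several probe sets was read from the one with the highest mean. The test covered the 20450 probe sets whose mean over the arrays exceeded the 30th percentile, log2 5.14. Files name no genome build, so no probe set coordinates are given.

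Differences are HS-HF minus low fat at each protein level. Their mean, with its SE, came from limma 3.58.1 in R 4.3.3 on all 6 arrays, with background and protein level as terms and 2 residual degrees of freedom (prior 4.37, prior SD 0.094). Protein level pairs the arrays by design, and a call meant p under 0.05 after Benjamini-Hochberg adjustment across the 20450 probe sets. The fit was tested on simulated data. It kept to its error rate where the spread of probe sets followed limma's own prior, and made more wrong calls than the threshold allows where the spread was taken from the shrunken estimates of these arrays. No p was computed for a list: 22 pathway and 10 cell type lists, written with 604 symbols of which 532 were measured, are described by counts and medians. Signals were not floored, and the number of arrays limits the precision.

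Genes named with values are the 15 with the largest mean difference in each direction among those of 1 sign and 1.2-fold or more in both pairs, the largest members of each list, members of opposite sign, and those beside the 1.5-fold limit. Ifit1, Ifit3, Isg15, Cxcl10, Dhcr7, Plin2, Derl3, Col1a1 and the genes called without 1 array were added after their values were seen. The comparison, the lists and the rules were chosen with earlier results of these data known. Alternatives changed the filter, the scaling, the arrays in the fit, the pairing, the test, the probe set of a gene and the fold limit.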

Additional observations from a re-analysis of the deposited data

Results flagged for a closer look

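The genes below differed by 1.5-fold or more in opposite directions at the 2 protein levels, and the values given last are the high protein difference minus the normal protein difference on the log2 scale. With 1 array per diet the difference between protein levels was not tested for any of them. Of the probe sets tested, 11 (0.0538%) showed such opposite differences at this size.

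Slc25a30, a mitochondrial carrier, read 7.80 on NP-HS-HF, against 8.52 on NP, and 9.73 on HP-HS-HF, against 8.15 on HP. Its differences of -0.72 and 1.58 lay 2.3 apart, and HP-HS-HF was the highest of the 6 arrays. Onecut1, a liver transcription factor, read 9.40 on NP-HS-HF, against 10.20 on NP, and 10.83 on HP-HS-HF, against 10.17 on HP, and its differences were 1.46 apart. Gpm6a, a membrane glycoprotein, read 8.54 on NP-HS-HF, against 7.66 on NP, and 7.45 on HP-HS-HF, against 8.44 on HP, which gave -1.87. Tmod1, an actin-capping tropomodulin, read 7.36 on NP-HS-HF, against 6.51 on NP, and 7.11 on HP-HS-HF, against 7.77 on HP, which gave -1.51.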

How the results depend on the processing

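The count of probe sets past the limma test stayed at 0 with no filter, with a filter at the 50th percentile, with each array centred on its median, with repeated quantile normalization, with the 4 arrays alone, with an ordinary t statistic, with an intensity trend and with no replicate block, that is with unpaired arrays (lowest adjusted p = 0.95). Leaving out 1 array gave between 0 and 12 calls, 12 without NP-HS-HF (8 higher, among them Hspb1, Egln3 and Pdk4) and 1 without HP-HS-HF (Ly6al). The count of 22 probe sets at 1.5-fold or more with 1 sign was 40 with no filter, 12 with the filter at the 50th percentile (8 higher and 4 lower), 324 at 1.2-fold and 3 at 2-fold, since these settings admit more or fewer probe sets. The 84 genes followed were chosen for 1 sign in both pairs. Another filter, the 4 arrays alone, unpaired arrays or leaving out an HS array cannot alter their estimate. Kept directions are thus largely built in, and 82 of the 84 kept theirs under every alternative run. The exceptions were Cish, a suppressor of cytokine signalling, with values from -1.6 without HP-HS-HF to 0.14 without NP-HS-HF, and Slc1a4, from -0.01 without HP-HS-HF to 1.27 without NP-HS-HF, and the cause was not tested. The mean difference of 49 of the 84 genes moved by over 1.5 times without 1 of the 4 arrays compared. Leaving out an HS array could not move it, since neither HS array enters the 2 paired differences. The number of arrays limits the precision, and a pool of 5 rats hides their spread.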

Other observations

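In the growth hormone list, 3 of 13 genes, Cish, Socs2 and Onecut1, differed by 1.5-fold or more in a pair. Of all probe sets tested, 0.533% were higher and 0.626% lower by as much at normal protein. At high protein the shares were 0.641% and 0.548%. The list was not tested as a set. Cish, a feedback inhibitor that growth hormone induces through STAT5, read 7.34 on NP-HS-HF and 8.64 on HP-HS-HF, against 8.71 on NP and 8.73 on HP. Only the NP-HS-HF array was far below the low fat arrays, and HP-HS was low as well at 7.59. Socs2, another inhibitor of this kind, read 8.54 on NP-HS-HF and 9.52 on HP-HS-HF, against 9.46 on NP and 9.12 on HP, with NP-HS at 9.72 and HP-HS at 8.33. For both genes the NP-HS-HF and HP-HS arrays were the lowest 2 of the 6.

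Tor3a, an ATPase of the endoplasmic reticulum, read 6.62 on NP-HS-HF and 8.25 on HP-HS-HF, against 6.60 on NP and 6.88 on HP, so that 1 array stood 2.58-fold above its low fat partner. Ly6al, a Ly6 family gene, read 5.34 on NP-HS-HF and 5.99 on HP-HS-HF, against 7.28 on NP and 5.87 on HP. The NP array was its highest. A2m, the alpha-2-macroglobulin of the rat acute phase, differed by 0.49 at normal and by -0.88 at high protein. Among macrophage markers, the Kupffer cell lectin Clec4f differed by -0.10 and -0.38 and the lysozyme Lyz2 by 0.32 and 0.21.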
